A study of Mus musculus with 12 samples.

Results

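Mouse cortical neurons carrying a hairpin against Zfr (shZfr) were compared with neurons carrying the first of 2 control hairpins (shControl1, labelled shControl#1), across all genes and across A-to-I RNA editing sites. The comparison took in 4 of the 10 samples of the series, namely replicates 1 and 2 of each group. Both groups were C57BL/6J primary cortical neurons taken from E16.5 embryos, infected with a lentivirus made from the vector pGreenPuro, and harvested on day 7. They differed, as far as the labels say, in the hairpin alone. The series also holds neurons with a second control hairpin (shControl2) and with hairpins against Adar (shAdar1) and Adarb1 (shAdar2), 2 samples each. The study itself set shZfr against shControl2 and used shControl1 as the control of the 2 ADAR knockdowns. Values of shControl2 are therefore given beside those of shControl1. The comparisons with shControl1 and with shControl2 share the shZfr samples, so they are not independent of each other. Whether the shZfr and shControl1 cultures were prepared together is not stated in the labels, so the hairpin and the culture cannot be told apart. The labels name a single hairpin for each knockdown.

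Of 23955 genes listed in the deposited tables, 14785 had enough reads to be tested. Of 46689 editing sites listed, 3666 had 20 or more reads in each of the 4 samples, and 930 of those also had 5 or more edited and 5 or more unedited reads over the 4 samples and were tested. The 4 libraries held between 19064057 and 29671858 expected counts and between 498000 and 676955 reads at editing sites. The 2 shZfr libraries stood apart in being unusually alike. The median gene differed between them by 0.05 on the log2 scale, against 0.15 between the 2 shControl1 libraries, and between 0.13 and 0.25 within the other 3 groups. The mean chi-square per gene was 2.37 between the shZfr libraries and 28.3 between the shControl1 libraries, where 1 would be sampling noise alone. The shZfr libraries thus differed by more than sampling noise at genes and were kept as 2 samples, while at editing sites their chi-square per site was 1.00. With both summed to 1 sample, a setting chosen after the data were seen, 2382 genes were higher and 1980 lower, against 3365 and 3459 with 2 samples, and 163 sites were edited less, against 422. The series text calls the shControl1 samples biological replicates and does not say this of the shZfr samples, whose spread may be technical. The p-values of sites rest on the spread within these 2 groups. Those of genes rest on a spread estimated over all groups of the series together.

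ZFR carries zinc fingers and a DZF domain and binds structured RNA; its relatives ILF2, STRBP and ZFR2 share that domain. ADAR enzymes deaminate adenosines of RNA duplexes, and the resulting inosine is read as G in sequencing, so that the share of G reads at a site is its editing level. ADAR1, encoded by Adar, is found in most tissues. ADAR2, encoded by Adarb1, is abundant in brain and edits the glutamine codon of the AMPA receptor subunit Gria2. Adarb2 encodes ADAR3, which binds double-stranded RNA but has no known editing activity.

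Zfr itself was lower in the knockdown. Its level was 173 and 173 CPM in shZfr neurons, against 289.9 and 268 CPM in shControl1 neurons (CPM are expected counts scaled to library size with TMM factors). The groups did not overlap, and Zfr in shZfr neurons was at 61.9% of its mean in shControl1 neurons (log2 fold change -0.69 ± 0.11 (SE), edgeR adjusted p = 0.000941). In shControl2 neurons Zfr was at 422 and 496 CPM, above both shControl1 samples, and the log2 fold change against that control was -1.41. Zfr mRNA was therefore further below shControl2 than below shControl1 in value. The difference between these fold changes was not tested. Zfr was at 323 and 291 CPM in shAdar1 neurons and at 179 and 197 CPM in shAdar2 neurons. Both shAdar2 samples, which carry no hairpin against Zfr, thus also lay under both shControl1 samples and near those of shZfr.

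The gene for ADAR2 was lower too, further than Zfr against shControl1 and less far than Zfr against shControl2 in value. Adarb1 was at 49.2 and 45.5 CPM in shZfr neurons, against 122 and 118 CPM in shControl1 neurons, and at 99.4 and 91.96 CPM in shControl2 neurons. Both shZfr samples lay under all 4 control samples, at 39.3% of the shControl1 mean (log2 fold change -1.35 ± 0.12 (SE), edgeR adjusted p = 4.0e-05; -1.02 against shControl2). Adar was at 139.7 and 133 CPM in shZfr neurons, against 153 and 192 CPM in shControl1 neurons, which did not pass (log2 fold change -0.34 ± 0.13 (SE), edgeR adjusted p = 0.0556), and it was at 139 and 118 CPM in shControl2 neurons. Adarb2 was at 79.9 and 84.5 CPM in shZfr neurons, against 65.1 and 50.5 CPM in shControl1 neurons, and did not pass either (log2 fold change 0.51 ± 0.26 (SE), edgeR adjusted p = 0.133). The 3 ADAR genes thus gave 1 called change, the lower Adarb1. With only the 4 compared samples fitted, Adarb2 passed as higher (log2 fold change 0.52, edgeR adjusted p = 0.0161). With replicate number added to that fit as a block, Adarb2 passed as higher (log2 fold change 0.53, edgeR adjusted p = 0.00222). Adar passed there as lower (log2 fold change -0.32, edgeR adjusted p = 0.0245). Without shControl1 replicate 1 the log2 fold change of Adar was -0.49.

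Among the DZF proteins, 2 relatives of Zfr were higher in shZfr neurons. Strbp, which encodes a spermatid perinuclear RNA-binding protein, was at 1317 and 1295 CPM in shZfr neurons, against 775 and 843 CPM in shControl1 neurons (log2 fold change 0.69 ± 0.12 (SE), edgeR adjusted p = 0.00157). Ilf2, whose protein binds RNA as part of a heterodimer, was at 108 and 105 CPM in shZfr neurons, against 61.9 and 72.8 CPM in shControl1 neurons (log2 fold change 0.66 ± 0.12 (SE), edgeR adjusted p = 0.00205). Against shControl2 the log2 fold changes were 0.36 for Strbp, which did not pass there, and 0.85 for Ilf2, which did. Zfr2 was at 22.7 and 20.7 CPM in shZfr neurons, against 26.3 and 26.5 CPM in shControl1 neurons, and did not pass. For Zfr2, Adar and Adarb2 the shZfr mean lay between the means of the 2 controls, as the plot of DZF and ADAR genes by sample shows.

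**Figure D1:**
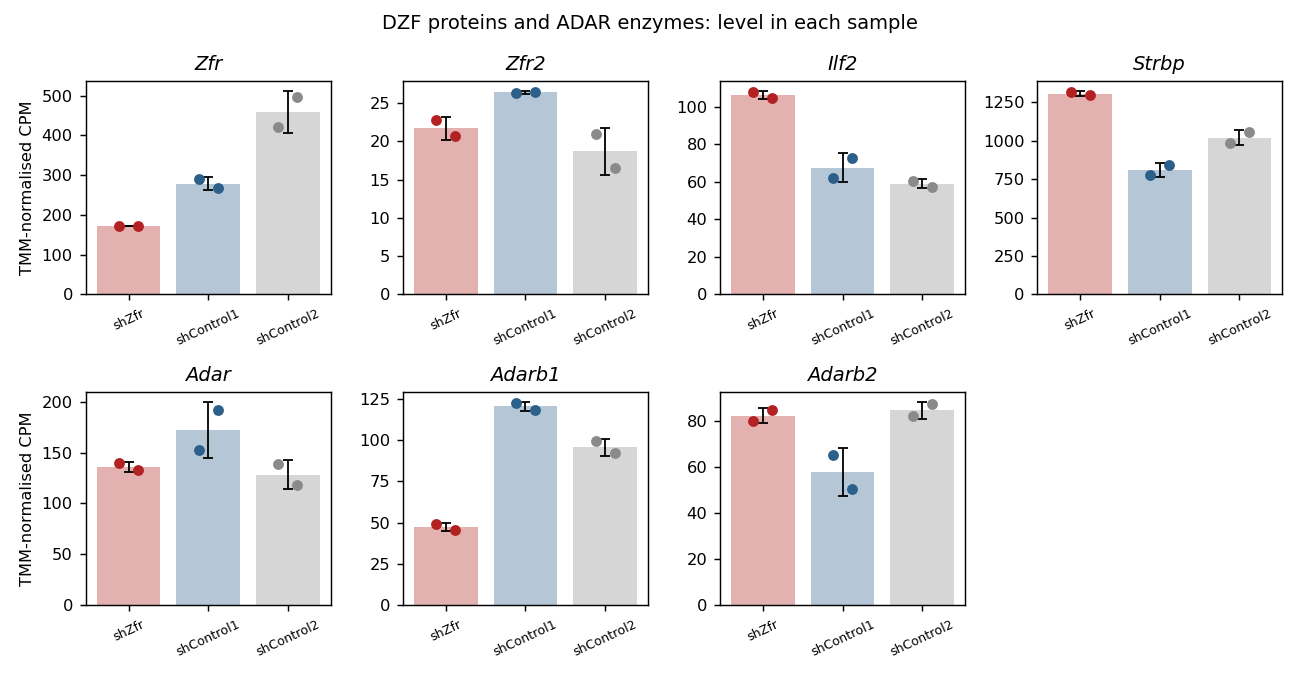
Level of 4 DZF genes and the 3 ADAR genes in TMM-normalised CPM (y axis, each from 0) in shZfr, shControl1 and shControl2 neurons. Points are the 2 samples of a group, bars their mean and error bars the SD; Adarb1 and Zfr in shZfr lie under both controls.

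Editing was lower in shZfr neurons across much of the tested set. By edgeR's quasi-likelihood test with Benjamini-Hochberg adjustment, 422 of 930 sites were edited less (45.4% of those tested) and 1 was edited more (0.108%). At an unadjusted p under 0.05, 500 sites were lower and 1 was higher. The change was below 0 at 865 of the 930 sites, with a median of -8.03 percentage points. At the 422 called sites the median change was -16.1 points, and it ran between -1.40 and -66.6 points. The groups did not overlap, with shZfr lower, at 415 of the called sites and at 656 of all tested sites (70.5%). At 19 tested sites they did not overlap with shZfr higher. The called sites lay in 219 of the 363 clusters tested, a cluster being a run of sites at most 10 kb apart. Sites of a cluster can share transcripts and reads and are not independent.

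Over the 3666 covered sites, the mean editing level was 2.23 and 2.16% in shZfr neurons, against 5.36 and 5.26% in shControl1 neurons. The means were 2.196% ± 0.054 in shZfr and 5.31% ± 0.066 in shControl1 (SD, n = 2 each), a difference of -3.11 points. The exact two-sided permutation test over samples gave p = 0.333, the smallest that 2 against 2 samples allow. Over the 930 tested sites the mean was 8.23% ± 0.15 in shZfr and 19.4% ± 0.34 in shControl1, so that 42.4% of the shControl1 level remained. Where a site was also covered in shControl2 (835 sites), the means were 8.13% ± 0.20 in shZfr, 19.1% ± 0.25 in shControl1 and 12.2% ± 0.50 in shControl2. The tested sites were chosen on reads of shZfr and shControl1 alone. Over all 3396 sites with 20 or more reads in each of the 6 samples, whatever their edited reads, the means were 2.099% ± 0.063 in shZfr, 5.05% ± 0.036 in shControl1 and 3.24% ± 0.13 in shControl2. The shControl2 mean thus lay between the other two in both sets. Against shControl2, 161 sites were edited less and 1 more. Where a site was also covered in shAdar1 (795 sites), the mean was 8.17% ± 0.21 in shZfr, 8.41% ± 0.87 in shAdar1 and 19.0% ± 0.14 in shControl1. The difference between the 2 knockdowns was not tested. Like means do not stand for like levels at each site. At chr2:158210689, described below, shAdar1 was at 40.1 and 31.4%, against 7.8 and 8.03% in shZfr. Both shAdar1 samples lay above both shZfr samples at each of the largest decreases described below, which were picked as extremes of shZfr.

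**Figure D2:**
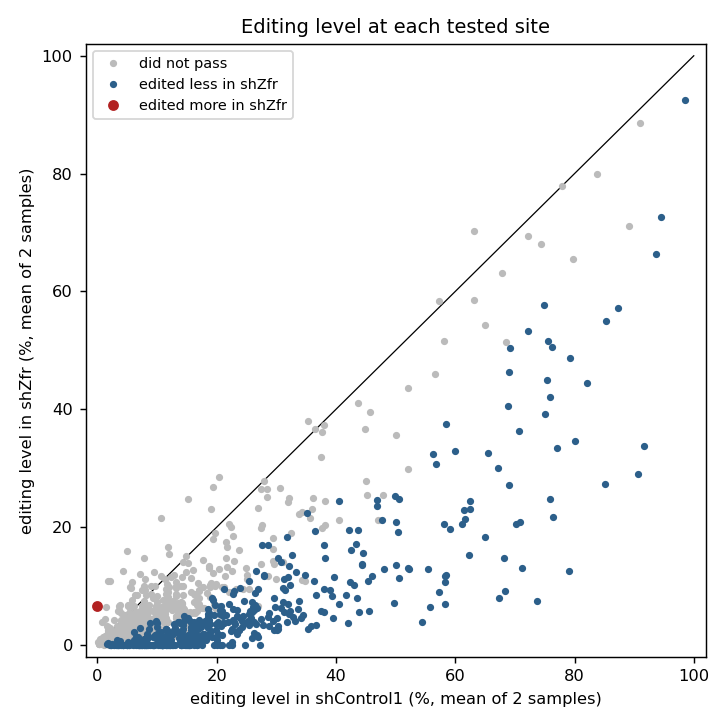
Mean editing level of each of the 930 tested sites in shZfr (y axis, %) against shControl1 (x axis, %), 2 samples each, with the line of equal levels. Blue points are the 422 sites edited less in shZfr, the red point the 1 site edited more, and grey points did not pass; most points lie under the line.

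The site calls rested on all 4 samples. Without shZfr replicate 1 the same test called 0 of 936 sites (368 lower and 1 higher at an unadjusted p under 0.05), and without shZfr replicate 2 it called 7 of 905. Without shControl1 replicate 1 it called 64 lower sites, and without shControl1 replicate 2 it called 203. Fisher's exact test on pooled reads called 410 lower sites with all samples, and 246, 221, 414 and 319 without shZfr replicate 1, shZfr replicate 2, shControl1 replicate 1 and shControl1 replicate 2. Fisher's test takes in counting error only and no spread between samples. Its leave-one-out form was chosen after the data were seen.

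The 8 sites with the largest called decreases in percentage points were edited in most reads of shControl1 neurons, as falls of that size require. Positions are in the mouse build mm9 and carry no gene name here, since no annotation of that build was used. The largest decrease was at chr10:48992582, edited at 13.3 and 11.8% in shZfr neurons, against 79.3 and 78.9% in shControl1 neurons. It was read by 45 and 68 reads in shZfr neurons and 87 and 95 reads in shControl1 neurons, and its level was 60.2 and 56.2% in shControl2 neurons. In the next cluster, chr10:48964136 was edited at 19.1 and 38.98% in shZfr neurons, against 90.7 and 90.6% in shControl1 neurons. The shZfr samples of that site were spread more widely than those of the other 7, yet both lay far under the shControl1 samples.

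The most deeply read of the 8 was chr2:158210689, with 205 and 274 reads in shZfr neurons and 254 and 436 reads in shControl1 neurons. It was edited at 7.805 and 8.03% in shZfr neurons, against 68.5 and 66.3% in shControl1 neurons (log2 odds ratio -4.56, edgeR adjusted p = 2.4e-46), and at 43.96 and 47.6% in shControl2 neurons. Levels in both groups agreed closely between replicates, and the site has no other listed site within 1 kb. A pair of sites in 1 cluster of chromosome 12 followed. At chr12:25739515 the levels were 4.88 and 10% in shZfr neurons, against 66.7 and 80.8% in shControl1 neurons, and at chr12:25745158 they were 36.5 and 31.2% in shZfr neurons, against 96.6 and 86.8% in shControl1 neurons. All 7 tested sites of that cluster, between 25739515 and 25745170, were edited less, with means of 8.59% in shZfr and 42.3% in shControl1.

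A pair on chromosome X lay within 1 kb of each other, among 14 neighbouring listed sites each. At chrX:71472201 the levels were 14.02 and 12.2% in shZfr neurons, against 75 and 67.3% in shControl1 neurons, and at chrX:71471989 they were 29 and 25.6% in shZfr neurons, against 86.99 and 83.2% in shControl1 neurons. Both had 100 or more reads in each of the 4 samples. At chr8:30261618 the levels were 13.5 and 4.76% in shZfr neurons, against 70 and 66.7% in shControl1 neurons, with 37 and 42 reads in shZfr neurons and 20 and 33 reads in shControl1 neurons. In shControl2 neurons these 3 sites were edited at 46.6 and 45.4%, 71.2 and 79.4% and 47.1 and 42.1%. At each of the 8 sites both shControl2 samples lay between the shZfr and the shControl1 samples. The 8 sites were picked as extremes of shZfr against shControl1, a choice that by itself favours such a place for another group. The 1 site edited more, chrX:67597825, had 11.1 and 2.08% in shZfr neurons, against 0 and 0% in shControl1 neurons, with 90 and 96 reads in shZfr neurons and 40 and 26 reads in shControl1 neurons. Its shControl2 levels were 9.52 and 5.61%, and it did not pass Fisher's exact test (0 sites higher by that test, 1 at an unadjusted p under 0.05).

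Decreases were found at every level of editing. Sites were sorted by their level in shControl2, which takes no part in the contrast. Of sites at 0 to 10% there, 212 of 548 were edited less, and the mean was 3.10% ± 0.19 in shZfr and 9.69% ± 0.10 in shControl1. For sites at 10 to 30% it was 113 of 190, with 9.98% ± 0.14 in shZfr and 25.6% ± 1.05 in shControl1. At 30 to 60% it was 49 of 71, and at 60 to 100% it was 19 of 26. At 30 to 60% the means were 25.3% ± 0.44 in shZfr and 52.3% ± 0.36 in shControl1, and at 60 to 100% they were 53.6% ± 0.33 in shZfr and 80.9% ± 1.44 in shControl1. The part of the shControl1 level that remained was 32.0, 39.0, 48.5 and 66.2% over the 4 classes, low to high. Since a site low in shControl2 could enter the test through edited reads of shControl1, the same parts were taken over all sites with 20 or more reads in each of the 6 samples. They were 31.4% over 3106 sites, 39.1% over 193, 48.5% over 71 and 66.2% over 26, low to high. The classes of 71 and 26 sites were the same sites as before, so their parts could not change. The class at 10 to 30% hardly changed, with 193 sites in place of 190. Only the lowest class was thus much altered by dropping the minimum of edited reads. Over all sites covered in the 6 samples, shControl2 was at 0.945% in the lowest class, against 2.085% in shControl1. In the highest class shControl2 was at 75.0%, against 80.9% in shControl1. For shControl2, by which the sites were sorted, the part of the shControl1 level was thus also smaller at low levels. Sorting on shControl2 by itself favours such a rise for that group. Whether the rise of these parts with level is particular to shZfr therefore cannot be told from these values. The parts are ratios of percentages, not odds ratios. These are descriptions, and no difference between classes was tested.

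Neither isolated nor densely packed sites stood out by count. With no other listed site within 1 kb, 42.5% of sites were edited less, with 1 to 4 neighbours 50.9%, with 5 to 14 neighbours 47% and with 15 or more 39.7%. Among sites whose lowest read number was 20 to 29, 39.2% were called, against 53.5% at 30 to 49 reads and 49% at 50 or more. The cluster with the most called sites lay on chromosome 11 between 75114062 and 75114517, where 13 of 23 tested sites were edited less and the means were 10.6% in shZfr and 22.9% in shControl1. A cluster on chromosome 2 between 4016532 and 4040126 had 11 of 12 tested sites edited less, with means of 25.3% in shZfr and 46.4% in shControl1. All 8 tested sites of a cluster on chromosome 6 between 85905358 and 85908394 were edited less, with means of 7.48% in shZfr and 28.6% in shControl1.

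**Figure D3:**
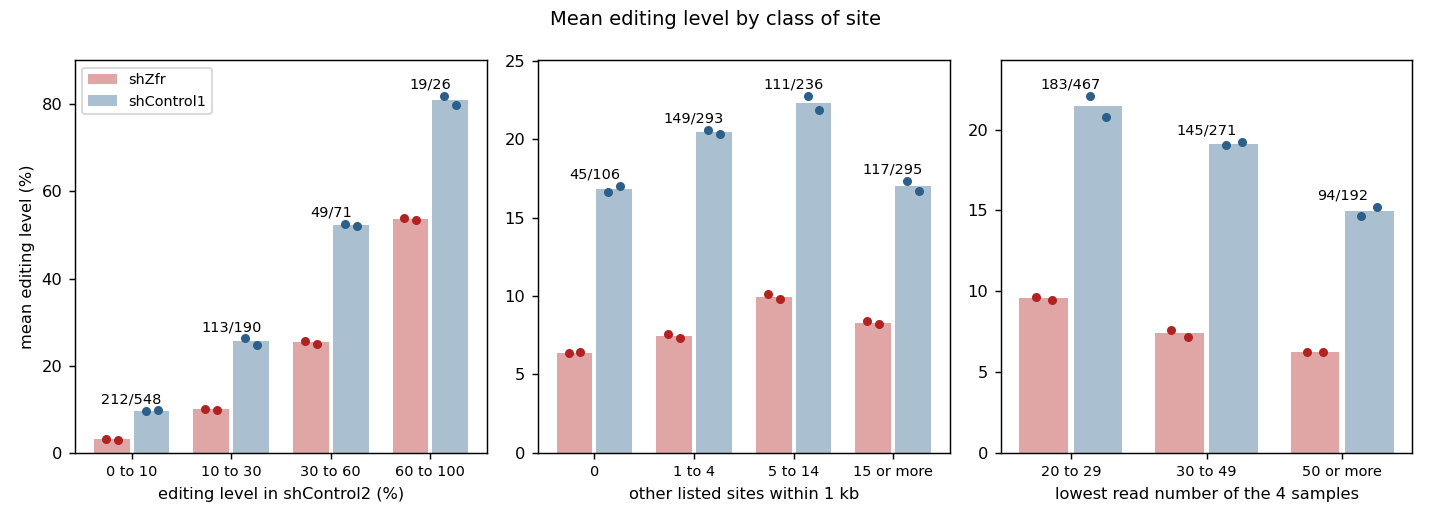
Mean editing level (y axis, %) in shZfr and shControl1 by level in shControl2, by number of listed sites within 1 kb, and by lowest read number of the 4 samples. Bars are group means, points the 2 samples, and the numbers above give sites edited less of sites tested; in every class both shZfr samples lie under both shControl1 samples.

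Gene expression differed widely between shZfr and shControl1 neurons, with similar numbers of genes in each direction. By edgeR's quasi-likelihood test with Benjamini-Hochberg adjustment, 3365 of 14785 genes were higher (22.8%) and 3459 were lower (23.4%), or 46.2% in all. By fitted fold changes, 1464 of the higher and 1493 of the lower genes differed by 2-fold or more. The median log2 fold change over all tested genes was -0.03. Groups did not overlap at 80.7% of tested genes. Against shControl2, 2464 genes were higher (16.7%) and 2078 lower (14.1%), with a median of 0.05. Leaving out shZfr replicate 1 or 2 left 1942 or 1980 lower genes, and with both control hairpins pooled 892 genes were higher and 995 lower.

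**Figure D4:**
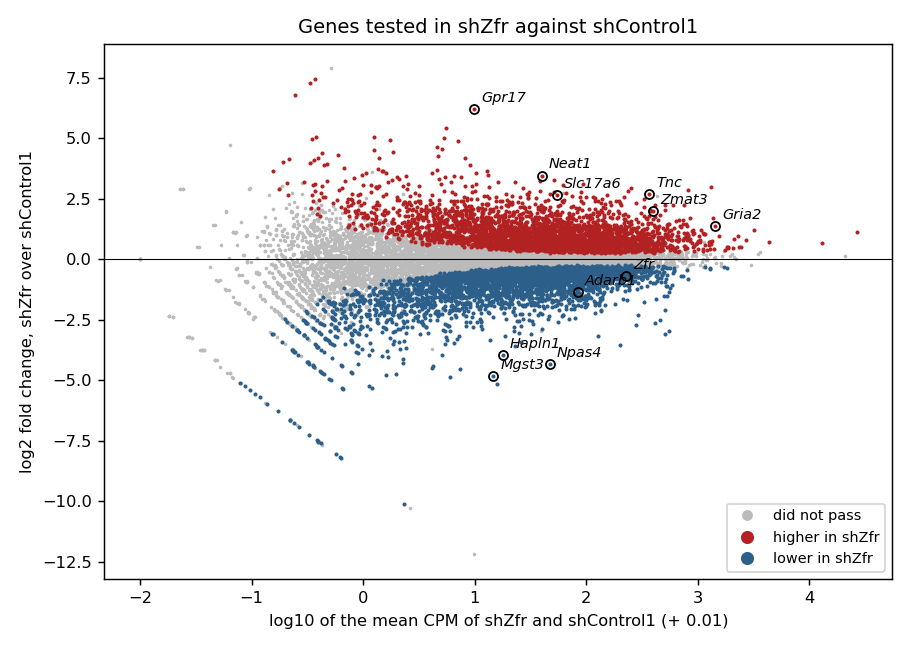
Log2 fold change of shZfr over shControl1 (y axis) against the log10 mean CPM of both groups (x axis) for the 14785 tested genes, coloured by edgeR call. Circled genes are described in the text; genes with no read in 1 group are drawn at fitted values that depend on the prior count and form the streaks at the lower left.

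The 10 genes with the largest called increases, among those at 5 or more CPM in the higher group, included several of glia and their progenitors. In these bulk samples, fewer cells of a type and less RNA per cell cannot be told apart. Gpr17, a receptor of early oligodendrocytes, was at 21.4 and 17.8 CPM in shZfr neurons, against 0.384 and 0.161 CPM in shControl1 neurons (log2 fold change 6.19 ± 2.24 (SE), edgeR adjusted p = 0.0462). Its call was lost without either shControl1 sample and without either shZfr sample, and in shControl2 neurons it was at 20.8 and 26.2 CPM, as high as in shZfr. Sox10, the transcription factor of the oligodendrocyte lineage, was at 15.996 and 14.98 CPM in shZfr neurons, against 1.27 and 0.451 CPM in shControl1 neurons, and at 14.5 and 14.2 CPM in shControl2. Gjc3, a connexin of glia, was at 11.3 and 10.5 CPM in shZfr neurons, against 0.307 and 0.193 CPM in shControl1 neurons (log2 fold change 5.44 ± 0.88 (SE)) and at 2.15 and 4.38 CPM in shControl2. For these 3 genes shControl1 was the lowest of the 3 groups.

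Other large increases had the same form. Mbnl3, a splicing regulator of the muscleblind family, was at 14.2 and 13.2 CPM in shZfr neurons, against 0.538 and 0.386 CPM in shControl1 neurons (log2 fold change 4.88 ± 0.37 (SE), edgeR adjusted p = 2.0e-05), and at 7.82 and 8.95 CPM in shControl2. Cldn1, a tight-junction claudin, was at 7.94 and 9.701 CPM in shZfr neurons, against 0.4996 and 0.419 CPM in shControl1 neurons, and at 7.204 and 7.85 CPM in shControl2. Dmrta1, a DM-domain transcription factor, had a log2 fold change of 5.01, and Stk32a, a kinase, one of 3.67. Against shControl2 the log2 fold changes of these 4 genes were 0.70, 0.23, 1.60 and 0.48, and none of the 4 passed there. The calls of Sox10 and Stk32a were lost without either shControl1 sample, and that of Dmrta1 without shControl1 replicate 2.

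Only a pair of the 10 largest increases was also called against shControl2. Gpr50, an orphan receptor related to the melatonin receptors, was at 8.52 and 9.05 CPM in shZfr neurons, against 0.423 and 0.2898 CPM in shControl1 neurons and at 0.334 and 0.457 CPM in shControl2 (log2 fold changes 4.62 and 4.46). Ano1, a calcium-activated chloride channel, was at 9.78 and 9.802 CPM in shZfr neurons, against 0.384 and 0.451 CPM in shControl1 neurons and at 0.859 and 0.639 CPM in shControl2 (log2 fold changes 4.53 and 3.70). In both genes each shZfr sample was far above all 4 control samples. Of genes at lower level that were called against both controls, Erbb3, a neuregulin receptor, was at 3.63 and 3.97 CPM in shZfr neurons, against 0.4996 and 0.258 CPM in shControl1 neurons (log2 fold change 3.33; 3.34 against shControl2). F2rl1, a protease-activated receptor, was at 1.96 and 3.22 CPM in shZfr neurons, against 0.154 and 0.129 CPM in shControl1 neurons (log2 fold change 4.17; 5.68 against shControl2). Cdh1, the epithelial cadherin, had 27 reads in the 2 shZfr samples and 1 in the 2 shControl1 samples, a ratio of 41.3 with a counting interval between 6.81 and 1693 after scaling. Edar, the ectodysplasin receptor, had 19 reads in the 2 shZfr samples and 3 in the 2 shControl1 samples, a ratio of 9.70 with an interval between 2.85 and 51.2. The calls of Cdh1 and Edar were lost when any 1 of the 4 samples was left out.

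The 10 largest called decreases fell into genes of neuronal activity and a mixed rest. Fosb, an AP-1 transcription factor induced by activity, was at 0.978 and 0.754 CPM in shZfr neurons, against 1.31 and 59.7 CPM in shControl1 neurons. Npas4, an activity-dependent transcription factor, was at 4.03 and 4.93 CPM in shZfr neurons, against 19.3 and 161 CPM in shControl1 neurons. Egr4, a zinc-finger immediate early gene, was at 0.345 and 0.402 CPM in shZfr neurons, against 2.73 and 13.4 CPM in shControl1 neurons. In all 3 genes shControl1 replicate 2 was far above replicate 1, and without replicate 2 none of the 3 was called. Fosb and Egr4 also lost their calls without either shZfr sample, and Npas4 without shZfr replicate 1. Their log2 fold changes were -5.14, -4.33 and -4.42 against shControl1 and 1.2, -0.94 and 0.99 against shControl2, where none passed. Wif1, a secreted Wnt inhibitor, was at 0.2302 and 0.553 CPM in shZfr neurons, against 4.42 and 18.8 CPM in shControl1 neurons, and at 0.429 and 0.776 CPM in shControl2.

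The other decreases did not rest on 1 control sample. Hapln1, a link protein of the perineuronal matrix, was at 2.36 and 1.96 CPM in shZfr neurons, against 40.3 and 26.4 CPM in shControl1 neurons and at 90.7 and 101 CPM in shControl2 neurons (log2 fold changes -3.95 and -5.47; edgeR adjusted p = 7.9e-06 against shControl1). Mgst3, a microsomal glutathione transferase, was at 1.09 and 0.905 CPM in shZfr neurons, against 27.2 and 29.6 CPM in shControl1 neurons and at 8.64 and 5.84 CPM in shControl2 (log2 fold changes -4.83 and -2.86). Fkbp1b, which binds ryanodine receptors, was at 3.63 and 3.47 CPM in shZfr neurons, against 45.002 and 39.4 CPM in shControl1 neurons and at 15.9 and 13.7 CPM in shControl2 (log2 fold changes -3.57 and -2.06). All 3 passed against both controls, with shZfr the lowest group. Kcns1, a modulatory potassium channel subunit, had log2 fold changes of -3.94 and -2.34 against shControl1 and shControl2, Arhgdib, an inhibitor of small GTPases, of -4.52 and -1.90, and Ramp3, a receptor-modifying protein, of -4.48 and -1.79. These 3 also passed against both.

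A few low genes had no read, or 1 read, in the shZfr samples. Phkg1, the catalytic subunit of muscle phosphorylase kinase, had 0 reads in shZfr, 68 in shControl1 and 85 in shControl2, at least 14.8-fold lower than shControl1 with a floor of 3 reads over the group. H2-T9, a non-classical MHC class I gene, had 0 reads in shZfr and 62 in shControl1, at least 13.5-fold lower, though reads of near-identical MHC genes may be split between copies. Tmc1, Nupr1 and Naip2 each had 0 reads in shZfr and 11, 10 and 9 in shControl1, at least 2.39-fold, 2.18-fold and 1.96-fold lower, and Naip2 has close paralogs. Sgpp2, a sphingosine phosphatase, had 1 read in shZfr and 48 in shControl1, a ratio of 0.032 with a counting interval between 0.00079 and 0.186. With any 1 of the 4 samples left out, Tmc1, Nupr1 and Naip2 lost their calls, while H2-T9 lost its call except without shControl1 replicate 2 and Sgpp2 only without shZfr replicate 2. Counting intervals and floors cover counting error only.

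Of 31 gene lists, the one of splicing factors and neuronal RNA-binding proteins is given first. List counts with each of the 4 samples left out are given where they moved by more than 1.5 times and by more than 2 members. Of 41 splicing factors and neuronal RNA-binding proteins, 28 rose and 2 fell, with a median log2 fold change of 0.63, beside 22.8% higher, 23.4% lower and a median of -0.03 over all genes. The other lists stand beside the same shares, and a list near them is not set apart by its counts. Against shControl2, 14 rose and 3 fell, with a median of 0.20. Nova1, a neuronal splicing factor and itself an editing target, was at 80.7 and 72.9 CPM in shZfr neurons, against 24.2 and 16.8 CPM in shControl1 neurons (log2 fold change 1.90), and at 72.04 and 89.3 CPM in shControl2. Srsf1, a splicing factor of the SR family, was at 638 and 641 CPM in shZfr neurons, against 270.01 and 232 CPM in shControl1 neurons (log2 fold change 1.35; 0.25 against shControl2). Srsf11 was at 251 and 253 CPM in shZfr neurons, against 105 and 125 CPM in shControl1 neurons (log2 fold change 1.13; 0.68 against shControl2), and it was above all control samples. Srsf6, named after its values were seen, was at 265 and 265 CPM in shZfr neurons, against 142 and 134 CPM in shControl1 neurons (log2 fold change 0.94). Rbm3, a cold-inducible RNA-binding protein, had a log2 fold change of 0.96, and -0.20 against shControl2, where it did not pass.

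Nuclear RNAs and paraspeckle proteins behaved alike in count. Of 13 tested, 9 rose and 4 did not pass, with a median of 0.70; against shControl2, 5 rose and 1 fell, with a median of 0.25. Neat1, the long noncoding RNA that forms paraspeckles, was at 73.4 and 72.2 CPM in shZfr neurons, against 5.53 and 7.73 CPM in shControl1 neurons and at 10.9 and 12.4 CPM in shControl2. Its log2 fold change was 3.45 ± 0.48 (SE) (edgeR adjusted p = 0.00038), and 2.64 against shControl2, so that both shZfr samples were above all 4 control samples. Miat, a neuronal noncoding RNA, was at 1315 and 1296 CPM in shZfr neurons, against 327 and 479 CPM in shControl1 neurons (log2 fold change 1.69; 0.52 against shControl2). The paraspeckle proteins Sfpq and Pspc1 had log2 fold changes of 0.86 and 0.88, and 0.20 and 0.33 against shControl2. Malat1, which lies in nuclear speckles, was at 36566 and 36685 CPM in shZfr neurons, against 15538 and 17734 CPM in shControl1 neurons, but at 35729 and 41990.5 CPM in shControl2. Meg3, an imprinted noncoding RNA, was at 5451 and 5276 CPM in shZfr neurons, against 2997 and 3611 CPM in shControl1 neurons (log2 fold change 0.70) and fell against shControl2 (log2 fold change -0.57). The call of Meg3 was lost without shControl1 replicate 1 and without shZfr replicate 1. Neat1, Malat1 and Meg3 were named after their values were seen.

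Published regulators of ADAR activity moved in both directions, with 7 of 15 tested higher and 4 lower (median 0.21; 6 higher and 3 lower against shControl2). Cpsf6, a cleavage and polyadenylation factor, was at 626 and 649 CPM in shZfr neurons, against 197 and 185 CPM in shControl1 neurons (log2 fold change 1.74), and 0.18 against shControl2, where it did not pass. Kpna2, an importin that carries cargo into the nucleus, was at 104 and 103 CPM in shZfr neurons, against 34.1 and 34.7 CPM in shControl1 neurons (log2 fold change 1.59; 0.87 against shControl2). Kpna2 passed against both controls. Of 15 sensors and binders of double-stranded RNA, 1 rose and 2 fell (median -0.14; 1 and 2 against shControl2). The member that rose was Dgcr8, the RNA-binding partner of Drosha, at 90.8 and 91.2 CPM in shZfr neurons, against 49.4 and 47.4 CPM in shControl1 neurons (log2 fold change 0.91; 0.72 against shControl2). Tarbp2, a partner of Dicer, was lower (log2 fold change -0.99), as was Prkra, which activates the kinase PKR (log2 fold change -0.47; 0.09 against shControl2). The call of Prkra was lost without shControl1 replicate 1 and without either shZfr sample.

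Calls among interferon-stimulated genes depended on the samples fitted. Of 37 interferon-stimulated genes tested, edgeR called 0 higher and 3 lower, with 0 higher and 3 lower at an unadjusted p under 0.05, and DESeq2 also called 0 higher and 3 lower. With only the 4 compared samples fitted, 20 had enough reads to be tested, of which edgeR called 4 higher and 3 lower (median 0.35). In the fit of all samples the median was -0.03, and -0.42 against shControl2, where edgeR called 0 in either direction. Ifi27, an interferon-induced mitochondrial protein, was at 0.748 and 0.352 CPM in shZfr neurons, against 3.34 and 2.67 CPM in shControl1 neurons, and Tap1, the peptide transporter of antigen presentation, was at 4.09 and 4.27 CPM in shZfr neurons, against 6.11 and 7.504 CPM in shControl1 neurons. Of 11 NF-kappaB inflammatory genes tested, 1 rose and 3 fell (median -0.68). Nfkbia, the feedback inhibitor of NF-kappaB, was at 6.502 and 7.84 CPM in shZfr neurons, against 11.6 and 11.4 CPM in shControl1 neurons, and Icam1, an adhesion molecule, was at 0.4603 and 0.302 CPM in shZfr neurons, against 3.07 and 2.45 CPM in shControl1 neurons. Levels of Ifi27, Tap1, Nfkbia and Icam1 in shControl2 neurons were 0.859 and 0.731, 2.91 and 3.52, 7.395 and 5.52 and 0.573 and 0.137 CPM, and none of the 4 passed against that control. The call of Tap1 was lost without shControl1 replicate 2 or either shZfr sample, and that of Nfkbia without either shControl1 sample or shZfr replicate 1.

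**Figure D5:**
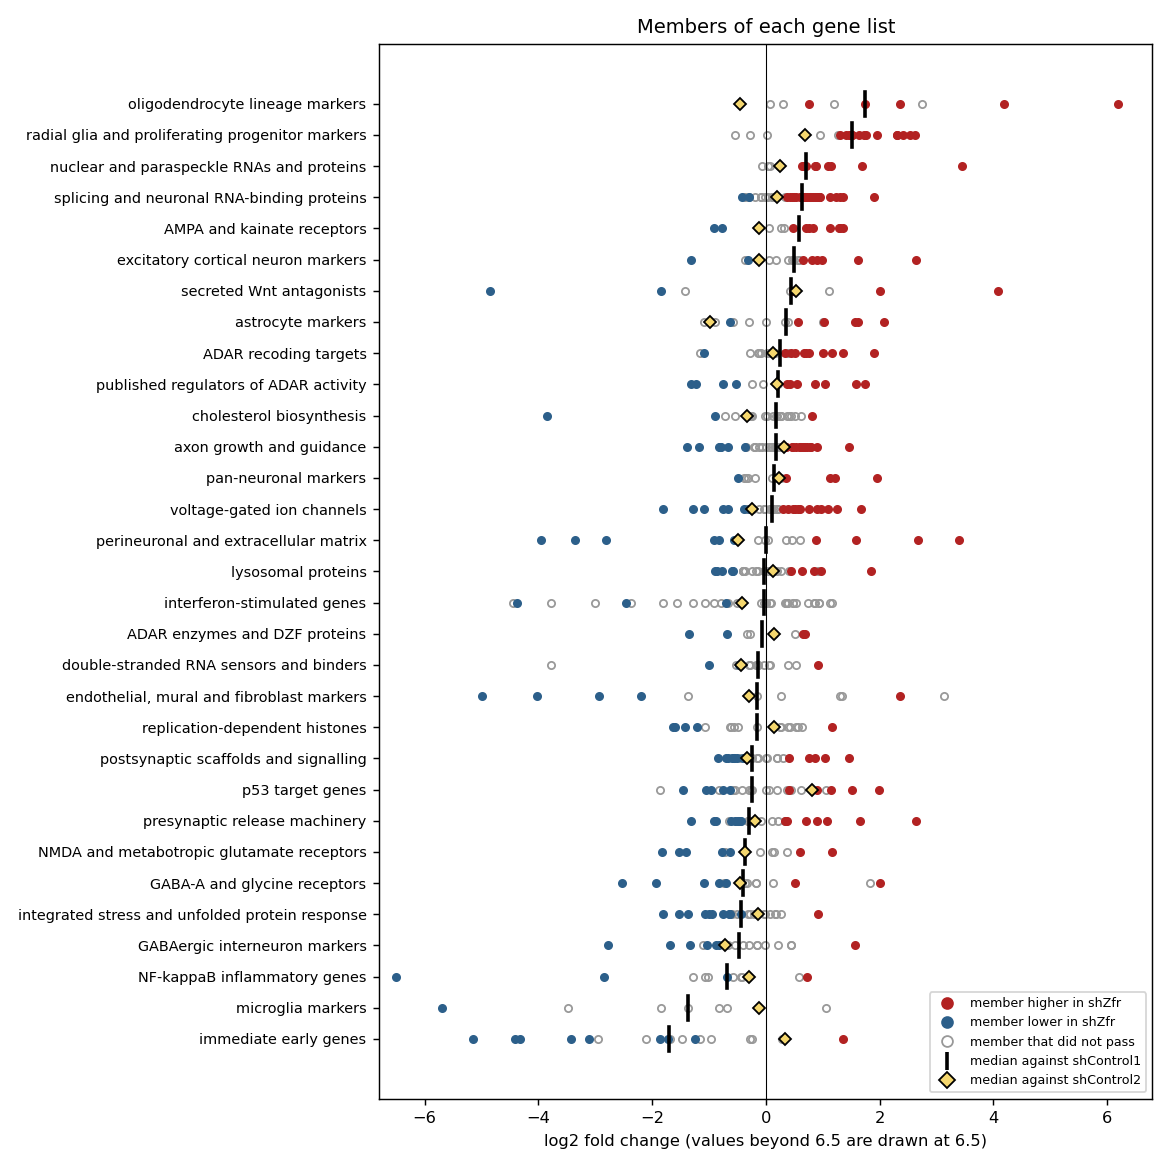
Log2 fold change of shZfr over shControl1 (x axis) for the tested members of the 31 gene lists (rows, sorted by median), filled where edgeR called them. Black bars are list medians against shControl1 and yellow diamonds medians against shControl2; the oligodendrocyte and progenitor lists have the highest medians against shControl1, and immediate early genes the lowest.

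Most markers of neural progenitors rose. Of 20 markers of radial glia and proliferating progenitors, 15 rose and 5 did not pass, with a median log2 fold change of 1.52, and their summed level was 3849 and 3693 CPM in shZfr neurons, against 1311 and 1077 CPM in shControl1 neurons. In shControl2 neurons the sum was 2089 and 2179 CPM, and 4 of 20 passed against that control, with a median of 0.69. Leaving out 1 sample at a time, between 7 and 12 rose, fewest without shControl1 replicate 2. Ccna2, a cyclin of S phase and G2, was at 53.2 and 49.3 CPM in shZfr neurons, against 9.7998 and 7.92 CPM in shControl1 neurons (log2 fold change 2.53 ± 0.38 (SE), edgeR adjusted p = 0.000638). Mki67, a protein of cycling cells, was at 351 and 323 CPM in shZfr neurons, against 69.8 and 65.99 CPM in shControl1 neurons, and at 211 and 217 CPM in shControl2. Top2a, the topoisomerase of dividing cells, was at 209 and 195 CPM in shZfr neurons, against 43.6 and 32.4 CPM in shControl1 neurons, and at 117 and 128 CPM in shControl2. Vim, an intermediate filament of radial glia, was at 509.9 and 543 CPM in shZfr neurons, against 169.8 and 204 CPM in shControl1 neurons and at 168 and 166 CPM in shControl2 (log2 fold changes 1.49 and 1.66), and it passed against both. Pax6, the transcription factor of radial glia, was at 18.2 and 18.6 CPM in shZfr neurons, against 5.07 and 4.38 CPM in shControl1 neurons (log2 fold change 1.96; 0.80 against shControl2, where it did not pass).

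The promoters of 3 members, Top2a, Mki67 and Cdk1, are shown because 15 of the 20 members rose; these 3 were chosen after their values were seen. Cdk1, the mitotic kinase, was at 18.4 and 16.6 CPM in shZfr neurons, against 5.34 and 5.25 CPM in shControl1 neurons (log2 fold change 1.73), a call that was lost when any 1 of the 4 samples was left out. Sequences run 5′ to 3′ on the gene's strand, from RefSeq on GRCm38.p6, and cover 250 bases before to 50 after the start. Capitals mark TTTGAA, the core of the cell cycle genes homology region, and CCAAT, the core of the NF-Y box, each on either strand (TTCAAA and ATTGG on the other), and no marked copies overlap.
Top2a at chr11:99024140-99024439, minus strand: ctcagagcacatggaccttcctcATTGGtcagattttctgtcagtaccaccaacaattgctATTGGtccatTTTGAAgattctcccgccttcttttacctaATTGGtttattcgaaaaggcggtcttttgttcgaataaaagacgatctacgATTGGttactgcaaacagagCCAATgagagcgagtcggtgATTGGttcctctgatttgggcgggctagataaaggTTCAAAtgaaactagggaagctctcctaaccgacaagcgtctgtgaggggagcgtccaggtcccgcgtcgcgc
Mki67 at chr7:135716330-135716629, minus strand: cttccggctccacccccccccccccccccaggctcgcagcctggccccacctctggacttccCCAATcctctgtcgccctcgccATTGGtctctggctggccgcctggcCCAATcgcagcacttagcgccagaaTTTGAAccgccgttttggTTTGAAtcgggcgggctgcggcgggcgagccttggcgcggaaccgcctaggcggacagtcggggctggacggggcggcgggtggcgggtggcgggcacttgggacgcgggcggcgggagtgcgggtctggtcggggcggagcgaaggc
Cdk1 at chr10:69352863-69353162, minus strand: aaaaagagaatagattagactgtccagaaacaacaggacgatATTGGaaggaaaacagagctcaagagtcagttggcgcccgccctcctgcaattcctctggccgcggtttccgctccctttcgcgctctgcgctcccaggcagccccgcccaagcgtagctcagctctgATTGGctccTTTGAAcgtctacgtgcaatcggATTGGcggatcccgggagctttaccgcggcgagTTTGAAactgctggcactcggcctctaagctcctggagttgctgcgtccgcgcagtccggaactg
TTTGAA was found in 6 of the 17 progenitor-list promoters in the table (35.3%), against 11.5% of 10973 promoters of tested genes and 18.1% of all 27025 promoters. CCAAT was found in 15 of the 17 (88.2%), against 38.9% of tested genes' promoters and 37.9% of all. Both stood together in 35.3% of the list and in 4.85% of tested genes' promoters. The promoters shown, of Top2a, Mki67 and Cdk1, hold 2 copies of TTTGAA each, more than any other of the 17. They are therefore not typical of the list. Those of Ccnb1, Birc5 and Nes hold no TTTGAA, and those of Birc5 and Nes no CCAAT either. A match describes these letters and is not a site of binding.

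Glial markers were split between the 2 controls. Of 9 oligodendrocyte markers tested, 5 rose and 4 did not pass (median 1.74), with a summed level of 337 and 290 CPM in shZfr, against 133 and 86.8 CPM in shControl1 and 481 and 483 CPM in shControl2. Without shControl1 replicate 1 or 2, 2 rose, and without shZfr replicate 1 or 2, 4 and 3 rose. Against shControl2, 2 fell and the median was -0.46. Cspg4, the NG2 proteoglycan of oligodendrocyte precursors, was at 39.8 and 33.1 CPM in shZfr neurons, against 8.301 and 5.86 CPM in shControl1 neurons, and at 39.9 and 39.6 CPM in shControl2. Mbp, a structural protein of myelin, rose against shControl1 (log2 fold change 0.76) and fell against shControl2 (log2 fold change -0.86). The call of Mbp was lost without shControl1 replicate 1 or shZfr replicate 2, and that of Cspg4 without shControl1 replicate 2. Of 14 astrocyte markers, 5 rose and 1 fell (median 0.36), and against shControl2 1 rose and 7 fell (median -0.97). Fgfr3, a growth factor receptor of astrocytes, was at 63.4 and 59.1 CPM in shZfr neurons, against 15.8 and 13.3 CPM in shControl1 neurons, and at 66.6 and 76.4 CPM in shControl2. Sox9, a glial transcription factor, was at 137 and 130.1 CPM in shZfr neurons, against 47.5 and 42.3 CPM in shControl1 neurons, and at 102 and 121 CPM in shControl2.

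Microglial and vascular RNA was scarce. The 7 microglia markers tested summed to 1.32 and 1.56 CPM in shZfr and to 3.50 and 2.16 CPM in shControl1, and of the 12 listed, 5 and 3 were at 0 reads in shZfr and 0 and 1 in shControl1. Of the 7, 1 fell and 6 did not pass. Vascular and fibroblast markers summed to 11.2 and 11.5 CPM in shZfr and to 10.3 and 14.7 CPM in shControl1, with 1 of 11 higher and 4 lower. Without shZfr replicate 1, 1 of these 11 was lower. The part of glia, progenitors and these cells in the other results was not tested.

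Neuronal markers were abundant in all 4 samples, with the pan-neuronal list summing to 8295 and 8427 CPM in shZfr neurons, against 5883 and 5531 CPM in shControl1 neurons. Most of the difference between these sums came from 1 gene, Map2, so the sums do not describe the list as a whole. Of 12 such markers, 4 rose and 1 fell (median 0.15; 3 and 1 against shControl2). Nefh, the heavy neurofilament of mature axons, was at 49.2 and 50.7 CPM in shZfr neurons, against 11.7 and 13.9 CPM in shControl1 neurons and at 9.97 and 11.004 CPM in shControl2 (log2 fold changes 1.96 and 2.25), above all 4 control samples. Map2, a dendritic microtubule protein, was at 4425 and 4501 CPM in shZfr neurons, against 2055 and 1791 CPM in shControl1 neurons (log2 fold change 1.21; 0.37 against shControl2, where it did not pass). Nefm, the medium neurofilament, was at 209 and 201 CPM in shZfr neurons, against 62.3 and 126 CPM in shControl1 neurons (log2 fold change 1.12).

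Against shControl1, excitatory and inhibitory markers leaned in opposite directions. Of 17 markers of excitatory cortical neurons, 6 rose and 2 fell (median 0.49), but 2 rose and 3 fell against shControl2 (median -0.12). Slc17a6, the vesicular glutamate transporter VGLUT2, was at 92.8 and 94.95 CPM in shZfr neurons, against 16.3 and 13.9 CPM in shControl1 neurons (log2 fold change 2.64 ± 0.19 (SE), edgeR adjusted p = 1.9e-05), and at 81.8 and 97.98 CPM in shControl2. Tbr1, a transcription factor of deep-layer neurons, was at 211 and 216 CPM in shZfr neurons, against 72.2 and 66.02 CPM in shControl1 neurons (log2 fold change 1.63; 0.49 against shControl2). Emx1, a dorsal forebrain transcription factor, was at 6.85 and 6.79 CPM in shZfr neurons, against 16.4 and 17.7 CPM in shControl1 neurons (log2 fold change -1.32). Of 18 interneuron markers, 1 rose and 6 fell (median -0.47), and 9 fell against shControl2 (median -0.72). Without shZfr replicate 1 or 2, 3 of them fell. Erbb4, the neuregulin receptor of interneurons, was at 42.6 and 41.02 CPM in shZfr neurons, against 137 and 132 CPM in shControl1 neurons and at 100.00 and 96.2 CPM in shControl2 (log2 fold changes -1.69 and -1.23). Npy, a neuropeptide of interneurons, was at 1.96 and 2.31 CPM in shZfr neurons, against 13.5 and 15.7 CPM in shControl1 neurons (log2 fold change -2.77; -1.56 against shControl2). Dlx1, a transcription factor of the interneuron lineage, was at 21.2 and 20.2 CPM in shZfr neurons, against 67.2 and 37.8 CPM in shControl1 neurons (log2 fold change -1.34; -1.26 against shControl2). These 3 genes passed against both controls, with shZfr under all 4 control samples.

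Glutamate receptor genes were divided by class. Of 14 AMPA and kainate receptor genes, counting their auxiliary subunits, 8 rose and 2 fell (median 0.59), and 4 rose and 2 fell against shControl2 (median -0.12). The 2 lower calls were lost without shZfr replicate 1 or 2 and without shControl1 replicate 1. Gria2, the AMPA receptor subunit that ADAR2 edits, was at 2049 and 2066 CPM in shZfr neurons, against 818 and 788 CPM in shControl1 neurons (log2 fold change 1.36 ± 0.11 (SE), edgeR adjusted p = 3.2e-05), and at 1532 and 1728 CPM in shControl2 (log2 fold change 0.34). Cacng2, the auxiliary subunit stargazin, was at 74.3 and 81.3 CPM in shZfr neurons, against 38.2 and 33.3 CPM in shControl1 neurons (log2 fold change 1.12; 0.52 against shControl2). Cnih3, another auxiliary subunit, was at 39.9 and 38.9 CPM in shZfr neurons, against 14.8 and 17.6 CPM in shControl1 neurons, and at 46.8 and 46.4 CPM in shControl2. Of 12 NMDA and metabotropic receptor genes tested, 2 rose and 5 fell (median -0.36). Grin1, the obligatory NMDA receptor subunit, was at 57.8 and 56.1 CPM in shZfr neurons, against 164 and 238 CPM in shControl1 neurons (log2 fold change -1.82), and at 76.3 and 63.3 CPM in shControl2; it was named after its values were seen. Grin2d, another NMDA subunit, was at 3.45 and 3.77 CPM in shZfr neurons, against 10.1 and 9.02 CPM in shControl1 neurons (log2 fold change -1.40; -1.31 against shControl2). Grm2, a metabotropic receptor, fell (log2 fold change -1.53; 0.58 against shControl2, where it did not pass). Of 22 genes with known ADAR recoding sites, a list that holds Gria2 and Nova1 too, 10 rose and 1 fell (median 0.25; 7 and 3 against shControl2).

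Among inhibitory receptor genes, more fell than rose. Of 16 GABA-A and glycine receptor genes, 2 rose and 6 fell (median -0.40), and 1 rose and 8 fell against shControl2 (median -0.46). Glrb, the glycine receptor beta subunit, was at 26.6 and 27.8 CPM in shZfr neurons, against 115 and 92.01 CPM in shControl1 neurons and at 148 and 169.5 CPM in shControl2 (log2 fold changes -1.93 and -2.54; edgeR adjusted p = 2.0e-05 against shControl1). Gabra3, a GABA-A subunit with an ADAR recoding site, was at 34.6 and 31.1 CPM in shZfr neurons, against 70.5 and 68.7 CPM in shControl1 neurons (log2 fold change -1.08; -1.25 against shControl2). Gabra4 was at 44.5 and 48.1 CPM in shZfr neurons, against 78.1 and 84.96 CPM in shControl1 neurons (log2 fold change -0.82; -0.91 against shControl2). All 3 were lower than every control sample. Gabrg1 went the other way, at 66.000 and 65.7 CPM in shZfr neurons, against 16.8 and 16.2 CPM in shControl1 neurons, with shControl2 at 58.1 and 61.9 CPM.

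Synaptic, axonal and channel genes were called in both directions, as were all genes (22.8% higher and 23.4% lower). The shares were 26.9% higher and 30.8% lower for presynaptic genes, 20% and 36% for postsynaptic genes, 36.8% and 18.4% for axonal genes and 38.7% and 22.6% for channel genes, so that the presynaptic shares lay near those of all genes. Of 26 genes of presynaptic release, 7 rose and 8 fell (median -0.30), and Syt4, a synaptotagmin, was at 1078 and 1099 CPM in shZfr neurons, against 454 and 575 CPM in shControl1 neurons (log2 fold change 1.08; 0.53 against shControl2). Of 25 postsynaptic genes, 5 rose and 9 fell (median -0.24; 1 and 10 against shControl2). With 1 sample left out, between 4 and 6 of the presynaptic genes, between 4 and 7 of the postsynaptic genes and between 2 and 6 of the channel genes below fell, the fewest without an shZfr sample and, for postsynaptic genes, also without shControl1 replicate 2. Nlgn3, a neuroligin, was at 82.97 and 82.3 CPM in shZfr neurons, against 135 and 134 CPM in shControl1 neurons (log2 fold change -0.70; -0.91 against shControl2), while Kalrn, an exchange factor for Rac, was at 786 and 796 CPM in shZfr neurons, against 369 and 402 CPM in shControl1 neurons (log2 fold change 1.04). Lrrtm1, a synaptic adhesion protein, had a log2 fold change of 1.47, and 0.36 against shControl2, where it did not pass. Of 38 genes of axon growth and guidance, 14 rose and 7 fell (median 0.17; 13 and 5 against shControl2), and between 8 and 12 rose with 1 sample left out, the fewest without shZfr replicate 2. Without an shZfr sample, 4 presynaptic genes rose. Robo1, the receptor of Slit proteins, was at 515 and 530.4 CPM in shZfr neurons, against 197 and 185 CPM in shControl1 neurons, and Slit2, a ligand of it, was at 48.6 and 48.3 CPM in shZfr neurons, against 109 and 144 CPM in shControl1 neurons. Their log2 fold changes were 1.45 and -1.38, and 0.79 and -0.81 against shControl2, so that receptor and ligand changed in opposite directions against either control. Dpysl5, a collapsin response mediator, was lower as well (log2 fold change -1.18; -0.89 against shControl2). Of 31 voltage-gated channel genes, 12 rose and 7 fell (median 0.10), but 4 rose and 10 fell against shControl2. Scn2b, a sodium channel beta subunit, was at 78.3 and 81.5 CPM in shZfr neurons, against 35.8 and 31.2 CPM in shControl1 neurons and at 42.6 and 39.04 CPM in shControl2, and Cacna1g, a T-type calcium channel, was at 116 and 114 CPM in shZfr neurons, against 37.9 and 34.2 CPM in shControl1 neurons and at 79.9 and 69.4 CPM in shControl2; both passed against both controls.

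Counts of immediate early genes moved with single samples. Of 18, 1 rose and 8 fell (median -1.71), with a summed level of 414 and 418 CPM in shZfr neurons, against 353 and 1263 CPM in shControl1 neurons and 392 and 382 CPM in shControl2 neurons. Without shControl1 replicate 2, 2 rose and 1 fell (median -0.14), and without shControl1 replicate 1, 1 rose and 15 fell (median -2.45). Without shZfr replicate 1 or 2, 1 and 2 fell. Against shControl2, 3 rose and 1 fell (median 0.33). Bdnf, a neurotrophin induced by activity, was at 5.87 and 7.39 CPM in shZfr neurons, against 25.2 and 88.8 CPM in shControl1 neurons, with shControl1 replicate 2 the highest sample. Jun, the AP-1 subunit, went the other way, at 146 and 156 CPM in shZfr neurons, against 55.5 and 61.9 CPM in shControl1 neurons and at 68.7 and 79.7 CPM in shControl2 (log2 fold changes 1.36 and 1.03), above all 4 control samples.

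Stress genes were partly lower. Of 23 genes of the integrated stress and unfolded protein responses, 1 rose and 10 fell (median -0.43; 1 and 5 against shControl2, median -0.15). Atf4, the transcription factor of the integrated stress response, was at 80.9 and 79.9 CPM in shZfr neurons, against 152 and 184 CPM in shControl1 neurons (log2 fold change -1.06; -0.54 against shControl2, where it did not pass). Among its known targets, Chac1, which breaks down glutathione, was at 2.99 and 3.27 CPM in shZfr neurons, against 9.95 and 11.9 CPM in shControl1 neurons, Atf5, a transcription factor, was at 10.1 and 9.802 CPM in shZfr neurons, against 31.7 and 25.5 CPM in shControl1 neurons, and Asns, asparagine synthetase, was at 63.99 and 64.9 CPM in shZfr neurons, against 147 and 187 CPM in shControl1 neurons. Their log2 fold changes against shControl2 were -1.13, -1.02 and -0.15, and Chac1 and Atf5 passed there while Asns, named after its values were seen, did not.

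Genes of the p53 pathway gave different counts by control. Of 25 tested, 5 rose and 5 fell against shControl1 (median -0.24), whereas 17 rose against shControl2 and 8 did not pass (median 0.81). Zmat3, an RNA-binding p53 target, was higher in both, at 642 and 635 CPM in shZfr neurons, against 159 and 161 CPM in shControl1 neurons and at 71.8 and 70.2 CPM in shControl2 (log2 fold changes 2.00 ± 0.09 (SE) and 3.17; edgeR adjusted p = 4.7e-06 against shControl1). Ddit4, an inhibitor of mTOR signalling, was at 96.7 and 93.9 CPM in shZfr neurons, against 42.2 and 44.2 CPM in shControl1 neurons (log2 fold change 1.14; 0.81 against shControl2). Phlda3, a repressor of Akt, fell against shControl1, at 10.4 and 9.45 CPM in shZfr neurons, against 25.8 and 28.4 CPM in shControl1 neurons, and rose against shControl2, where it was at 6.06 and 7.17 CPM. Cdkn1a, the cell cycle inhibitor p21, was at 75.1 and 74.7 CPM in shZfr neurons, against 81.7 and 102 CPM in shControl1 neurons, and did not pass. It was at 30.7 and 24.5 CPM in shControl2 and passed there (log2 fold changes -0.29 and 1.44). With a replicate block it passed as lower against shControl1 (log2 fold change -0.28, edgeR adjusted p = 0.0428). Cdkn1a was named after its values were seen.

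Matrix, Wnt and lysosomal genes completed the lists. Of 16 matrix genes, 4 rose and 6 fell (median 0.01; 2 and 6 against shControl2), 3 of them falling without shZfr replicate 1, with Hapln1, described above, the lowest. Tnc, the glial matrix protein tenascin-C, was at 636 and 628 CPM in shZfr neurons, against 85.7 and 112 CPM in shControl1 neurons and at 205 and 287 CPM in shControl2 (log2 fold changes 2.68 and 1.36), above all 4 control samples. Adamts18, a matrix protease, was at 14.7 and 12.9 CPM in shZfr neurons, against 1.61 and 1.03 CPM in shControl1 neurons, but at 18.2 and 17.8 CPM in shControl2. Of 8 secreted Wnt antagonists tested, 3 rose and 2 fell (median 0.44), and Sfrp2, one of them, was at 12.7 and 11.3 CPM in shZfr neurons, against 3.31 and 2.67 CPM in shControl1 neurons (log2 fold change 2.00; 1.01 against shControl2). Of 25 lysosomal genes, 5 rose and 5 fell (median -0.03). Psap, the precursor of the saposins, was at 270.3 and 270.2 CPM in shZfr neurons, against 79.5 and 69.8 CPM in shControl1 neurons, yet at 512 and 451 CPM in shControl2, so that it rose against one control (log2 fold change 1.86) and fell against the other (-0.83). Scarb2, a lysosomal membrane receptor, was lower against both (log2 fold changes -0.87 and -0.48). Of 23 cholesterol synthesis genes tested, 1 rose and 2 fell, and of 19 replication-dependent histones, whose near-identical copies share reads, 1 rose and 4 fell. Among the histones 5 fell without shControl1 replicate 2, 2 rose and 0 fell without shControl1 replicate 1, and 1 fell without either shZfr sample.

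A 7-base word in 3′ untranslated regions (3′ UTRs) was more frequent among genes higher against shControl1. The word TAATGAT was taken up because it had stood out in earlier results of these data, so its counts are a description. It was searched on the transcript strand in each gene's longest 3′ UTR of GENCODE M21 (GRCm38). It was present in 625 of 3111 higher genes (20.1%), 192 of 3185 lower genes (6.03%) and 1372 of all 13410 tested genes with a 3′ UTR (10.2%). Higher genes also had longer 3′ UTRs, with a median of 1896 bases, against 1020 in lower genes and 1230 in all. Per 100 kb of 3′ UTR there were 10.3 copies in higher genes, 4.51 in lower genes and 6.97 in all. Against shControl2 the word was in 10.3% of higher and 13.3% of lower genes, whose median 3′ UTRs were 1258 and 1825 bases. Per 100 kb of 3′ UTR there were 6.99 copies in genes higher against shControl2 and 7.01 in lower ones. Both were near the 6.97 of all genes, so that per length the word leaned in neither direction against shControl2.

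The copies in 3 genes that rose and 3 that fell, all described above, are shown with the word in capitals, 5′ to 3′ on the transcript strand.
Gria2 at chr3:80683539-80683565, minus strand: attatttaatTAATGATaacctggatt
Mbnl3 at chrX:51118190-51118216, minus strand: gtgcagtgacTAATGATcttattgaag
Srsf1 at chr11:88051686-88051712, plus strand: gtgtagagggTAATGATctggaaagta
Kcns1 at chr2:164163831-164163857, minus strand: ttagcttgatTAATGATtcaatatggg
Bdnf at chr2:109725678-109725704, plus strand: ggcacagcaaTAATGATattaatgcag
Slit2 at chr5:48305550-48305576, plus strand: gtagagttgaTAATGATttatagtgaa
Each of the 6 genes holds 1 copy in its longest 3′ UTR. Gria2, Mbnl3 and Srsf1 rose against shControl1 (log2 fold changes 1.36, 4.88 and 1.35), while Kcns1, Bdnf and Slit2 fell (log2 fold changes -3.94, -3.10 and -1.38), so that the word stood in genes of both directions. Against shControl2 Gria2 passed as higher (log2 fold change 0.34) and Kcns1 and Slit2 passed as lower, while Mbnl3, Srsf1 and Bdnf did not pass. A match says that these letters are present, and nothing about what binds there.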

How the data were processed

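RNA depleted of ribosomal RNA was sequenced from shRNA-treated neurons. The authors deposited, for each library, RSEM expected counts and TPM per gene, and counts of A and G reads with the editing level as a fraction per site. RSEM 1.2.30, STAR 2.5.4b, DESeq2 1.20.0, SAMtools 1.4, Trim Galore 0.4.5 and mm9 are named, without role or order, per the submitters' processing notes; the strand setting of the counting was not stated, so reads of overlapping antisense genes cannot be told apart. TPM was not tested.

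Expected counts were rounded and fitted with edgeR 4.0.16 (R 4.3.3, quasi-likelihood, filterByExpr, TMM) over all 10 samples, the 3 technical libraries of shAdar2 replicate 1 being summed, with group as the only term. At sites, edited and unedited reads of the 4 samples were fitted with a coefficient per library. Calls used a Benjamini-Hochberg adjusted p under 0.05 over all genes or sites tested. Both tests were tested on simulated data, where the site test missed most of the changes put in, so that sites that did not pass are not shown to be unchanged. Alternatives were DESeq2 1.42.0, other filters, coverage minimums, each sample left out, a replicate block, either or both controls, and Fisher's exact test. Median coverage of tested sites was 42 reads per sample; no source used here says whether PCR duplicates were removed.

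The genes, 31 lists and sequence words were chosen with earlier results of these data known. Named genes are the ADAR and DZF genes, the 10 largest called increases and decreases at 5 or more CPM without overlap of groups, up to 3 members with the lowest p per list, and the 6 largest changes each way called against both controls; exceptions are marked in the text, and some genes that the rule names are not reported here. No annotation of mm9 was used, so sites carry no gene names and no recoding position was looked up.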

Additional observations from a re-analysis of the deposited data

How the results depend on the processing

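The counts of genes moved most with the control and the samples. Higher genes numbered 3365 and lower genes 3459, and both stayed within 1.5 times of this under DESeq2 (3534 and 3245), its size factors, no filter, ribosomal RNA genes left out and a fit of the 4 samples alone (4218 and 4191). With 1 sample left out they ranged between 2258 and 2623 higher and between 1942 and 2715 lower. Lower genes numbered 2078 with shControl2 as the control and 1980 with the shZfr libraries summed, and with both controls pooled 892 were higher and 995 lower. Zfr kept its direction and its call in every setting run, between -0.63 and -1.41 on the log2 scale. Sites edited less numbered 811 of 2493 at 10 reads, 93 of 192 at 50 reads, 410 of 930 by Fisher's exact test, 161 of 1312 against shControl2, 109 of 968 with controls pooled and 163 with shZfr summed. Leaving out 1 sample gave between 0 and 203 by edgeR and between 221 and 414 by Fisher's exact test (246 without shZfr replicate 1, 221 without shZfr replicate 2), and the first test then has few residual degrees of freedom. Of the 422 sites, between 209 and 290 were called again by Fisher's exact test with 1 sample left out. Sites edited more numbered 0 at 50 reads, by Fisher's exact test, with controls pooled and with shZfr summed, and between 0 and 2 with 1 sample left out; at an unadjusted p under 0.05 there were 0, 1, 1 and 1 in those 4 settings. The difference in mean editing level of -3.11 points was -2.74 as edited reads over all reads, -4.43 at 10 reads and -1.74 at 50 reads.

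The replicate block gave 4310 higher and 4275 lower genes, 303 sites edited less and 0 edited more (1 at an unadjusted p under 0.05), and 5 of 20 interferon-stimulated genes higher. Deviations of same-numbered shZfr and shControl1 samples correlated at -0.04. Those of shZfr correlated at 0.24 with shControl2, -0.09 with shAdar1 and -0.05 with shAdar2. The shZfr libraries differed too little from each other for these values to decide whether samples were paired.

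Log2 fold changes that turned sign with shControl2 as the control were Adar 0.09, Adarb2 -0.04, Zfr2 0.21, Gpr17 -0.26, Fosb 1.2, Egr4 0.99, Nova1 -0.07, Prkra 0.09, Tap1 0.38, Icam1 0.10, Nfkbia 0.15, Phlda3 0.58, Rbm3 -0.2, Cnih3 -0.24, Grm2 0.58, Emx1 0.12, Fgfr3 -0.22, Mbp -0.86, Cspg4 -0.13, Psap -0.83, Adamts18 -0.38, Malat1 -0.09, Meg3 -0.57 and Cdkn1a 1.44. With both controls pooled they were Mbp -0.26, Psap -0.04, Meg3 -0.07 and Cdkn1a 0.33, and at chrX:67597825 the change against shControl2 was -0.968 points. The cause was not tested. Depth left 3666 of 46689 listed sites, and the minimum of edited and unedited reads left 930.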
